A study of Mus musculus with 5 samples.

Results

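The 10 genes described here encode the core enzymes of mitochondrial beta-oxidation and of the carnitine shuttle that feeds it: Cpt1a, Cpt2, Acadvl, Acadl, Acadm, Acads, Hadha, Hadhb, Hadh and Acaa2. They were chosen by symbol and not by a rule on their values, but with earlier results of these data known. The choice was among the 19938 genes that the array annotation names by a probe set (a group of probes read as 1 value) with exactly 1 gene symbol. All 10 had such a probe set. Hadhb had 2, of which the brighter stands for the gene, and the other genes had 1 each. RNA came from the liver of 5 male wildtype C57BL/6N mice, aged 5 to 6 months, on 1 Affymetrix whole-transcript array per mouse. All 5 had received streptozotocin, which kills the insulin-producing cells of the pancreas, in 5 daily doses of 65 mg/kg when 10 to 16 weeks old. From 2 weeks later, all ate chow with bezafibrate, an agonist of the peroxisome proliferator-activated receptors (PPARs), for 8 weeks, at 0.25% or 0.5% by weight, and the labels do not say which mouse had which. Livers without either agent were not analysed here, so the values show how these enzymes were expressed, and how much they differed, among mice given both, and no effect of either agent. The mouse numbers are names without order.

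Beta-oxidation shortens a fatty acid by a pair of carbons per turn and yields acetyl-CoA and reduced electron carriers. Long-chain fatty acids enter the mitochondrion as carnitine esters, and each turn then runs through a dehydrogenation, a hydration, another dehydrogenation and a thiolytic cleavage, with enzymes that differ in the chain length they prefer. In liver the pathway supplies energy and the substrate of ketone bodies during fasting, and most of its genes are known targets of PPARA, the PPAR form that dominates in hepatocytes.

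Every core gene was expressed well above background in every liver. For each array, background was set at the 95th percentile of the 1210 probe sets for olfactory and vomeronasal receptors, genes of sensory tissue, and ranged from 5.59 to 6.07. All values are log2 signals, so a gap of 1 means 2-fold. All 10 genes exceeded it on all 5 arrays, as did 60% of all 19938 genes, and the smallest margin was 4.58, for Acadvl. The genes differed little between mice. The span from the lowest to the highest liver ranged from 1.01-fold for Acaa2 to 1.21-fold for Hadhb. The SDs over the 5 mice ran from 0.0077 to 0.11 (log2, n = 5), with a median of 0.075 against 0.117 over the 13336 genes tested. That comparison ignores level. Tested genes within 0.5 of a core gene's level had median SDs from 0.061 (for Acaa2) to 0.099 (for Acadvl). Of the 10 core genes, 7 had an SD below the median of their level. Levels of different genes come from different probes and are not compared.

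**Figure D1:**
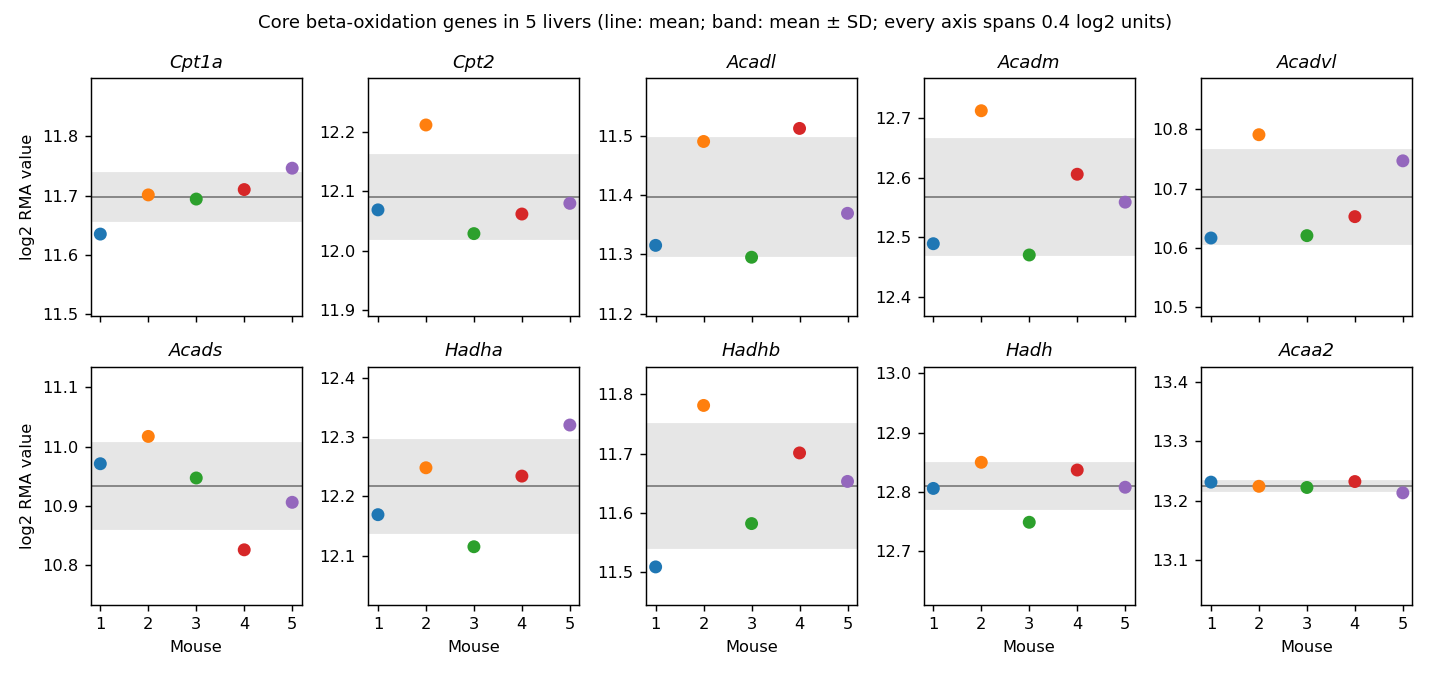
Log2 RMA value (vertical axis) of each of the 10 core beta-oxidation genes in mice 1 to 5 (horizontal axis), 1 point per liver, with the mean as a line and the mean ± SD as a band. Every axis spans the same width, so the points of Acaa2 (SD 0.0077) lie on a flat line while those of Hadhb (SD 0.11) scatter most.

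Cpt1a, the carnitine palmitoyltransferase of the outer membrane and the main point of control of fatty acid entry, had log2 values of 11.64, 11.70, 11.69, 11.71 and 11.75 in mice 1 to 5 (mean 11.70 ± 0.04, SD, n = 5). Mouse 1 was lowest and mouse 5 highest, a span of 1.08-fold, and without mouse 1 the SD was 0.023. Cpt2, the transferase of the inner membrane that returns the acyl group to coenzyme A, had 12.07, 12.21, 12.03, 12.06 and 12.08 (mean 12.09 ± 0.07). Mouse 2 stood above the other 4 livers, which lay between 12.03 and 12.08, and without it the SD of Cpt2 was 0.022.

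The 4 acyl-CoA dehydrogenases carry out the first step of a turn and hand electrons to the respiratory chain. Acadvl, which acts on very long chains at the inner membrane, had 10.62, 10.79, 10.62, 10.65 and 10.75 (mean 10.69 ± 0.08, SD, n = 5). Mice 2 and 5 were above the other 3. Acadl, of long chains, had 11.32, 11.49, 11.30, 11.51 and 11.37 (mean 11.40 ± 0.10), with mice 2 and 4 above the others. Acadm, of medium chains, had 12.49, 12.71, 12.47, 12.61 and 12.56 (mean 12.57 ± 0.10). Mouse 2 was highest and mice 1 and 3 lowest, a 1.18-fold span, and without mouse 2 the SD was 0.063. Acads, of short chains, had 10.97, 11.02, 10.95, 10.83 and 10.91 (mean 10.93 ± 0.07). It was the 1 core gene that was lowest in mouse 4, the liver where Acadl was highest. Without mouse 4 its SD was 0.046. The 4 dehydrogenases thus shared a value above their own mean in mouse 2 and no other mouse in which all 4 lay on the same side.

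Hadha and Hadhb encode the subunits of the mitochondrial trifunctional protein, which performs the last 3 steps on long chains. Hadha carries the hydratase and the long-chain hydroxyacyl-CoA dehydrogenase, and Hadhb the thiolase. Hadha had 12.17, 12.25, 12.12, 12.23 and 12.32 (mean 12.22 ± 0.08, SD, n = 5), highest in mouse 5. Hadhb had 11.51, 11.78, 11.58, 11.70 and 11.65 (mean 11.65 ± 0.11), highest in mouse 2 and lowest in mouse 1, the widest spread of the 10. The other Hadhb probe set gave 11.39, 11.68, 11.48, 11.64 and 11.53 (SD 0.12), with the mice in the same order. Its deviations from its own mean differed from those of the brighter probe set by at most 0.035.

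The subunits did not deviate alike in every liver. Hadha minus Hadhb, each as the deviation from its own mean, was 0.088, -0.105, -0.039, -0.039 and 0.095 (log2) in mice 1 to 5. The gap between the Hadhb probe sets was 0.018, 0.001, -0.002, -0.035 and 0.018. With 1 mouse left out, Hadha minus Hadhb ranged from 0.062 to 0.112 in mouse 1, from -0.115 to -0.081 in mouse 2 and from 0.069 to 0.117 in mouse 5. In mice 3 and 4 it ranged from -0.065 to -0.015, which at its small end is below the gap of mouse 4. In all 5 livers both subunits nonetheless lay on the same side of their own means by the brighter probe set. The other Hadhb probe set was on the opposite side from Hadha in mouse 5, at -0.010. These are single differences per mouse with no test.

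**Figure D2:**
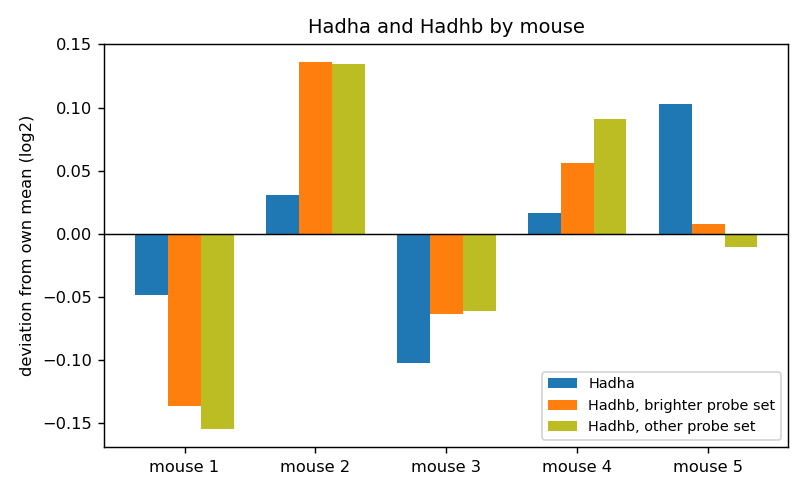
Deviation from its own mean over the 5 mice (log2, vertical axis) of Hadha and of the 2 Hadhb probe sets in each mouse (bars from 0). The Hadhb probe sets track each other closely, whereas Hadha exceeds them by about 0.1 in mouse 5 (0.095 against the brighter one) and lies below them by a like amount in mouse 2 (-0.105).

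The genes of both subunits lie next to each other on chromosome 5 of the mouse and are transcribed away from each other. In the RefSeq promoter windows (250 bases before to 50 after a gene's start, build GRCm38.p6) their starts are 273 bases apart and the 300-base windows share 228 bases, the only overlap among the 9 core genes found in that table. The stretch before the start of Hadhb is shown because 228 of its 250 bases also belong to the window of Hadha, read on the opposite strand. Capitals mark the GC box GGGCGG, searched on both strands.
Hadhb upstream, chr5:30155003-30155252, plus strand: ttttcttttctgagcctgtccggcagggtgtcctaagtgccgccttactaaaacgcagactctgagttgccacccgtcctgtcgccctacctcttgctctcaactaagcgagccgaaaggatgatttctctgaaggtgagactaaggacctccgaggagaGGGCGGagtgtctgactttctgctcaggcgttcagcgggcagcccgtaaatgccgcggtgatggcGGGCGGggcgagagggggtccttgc

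Hadh, the hydroxyacyl-CoA dehydrogenase of medium and short chains, had 12.81, 12.85, 12.75, 12.84 and 12.81 (mean 12.81 ± 0.04, SD, n = 5), with mouse 3 lowest and a span of 1.07-fold. Without mouse 3 its SD was 0.022. Acaa2, the thiolase of the last step for chains that the trifunctional protein does not take, had 13.231, 13.224, 13.222, 13.232 and 13.213 (mean 13.22 ± 0.0077). The 5 livers lay within 0.019 of each other. Among the 13336 genes tested, Acaa2 had the third smallest SD (rank 3), and of 76 other genes with a mean within 0.5 of its own, 0 had a smaller one, with a median of 0.061. That spread depends on the scaling of the arrays: it was 0.032 after quantile normalization of the deposited values and 0.037 with each array centred on its median. Acaa2 came within 0.79 of the brightest value on an array (13.998 to 14.117), the closest of the 10 genes. Whether the top of the array scale compressed its differences was not tested. Of the 42 tested genes with a mean above 13, Acaa2 had the smallest SD, and the median was 0.056.

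To ask whether any core gene differed between mice more, or less, than genes of its level usually do, the variance of each probe set was divided by the variance expected at its level from a limma fit across 14586 probe sets. This variance ratio was below 1 for 7 of the 10 core genes, as for 53% of tested genes, and its median was 0.68, against 0.93 over all tested genes. It was highest for Acadm (1.58), Hadhb (1.44) and Acadl (1.22) and lowest for Acaa2 (0.012), Cpt1a (0.21) and Hadh (0.27). These ratios moved with single mice. With 1 mouse left out, that of Acadm ranged from 0.62 (without mouse 2) to 2.71 (without mouse 5). That of Cpt2, 0.73 with all mice, ranged from 0.067 (without mouse 2) to 1.22 (without mouse 5). Hadhb ranged from 0.81 to 2.37, Acadl from 0.88 to 1.95, Cpt1a from 0.062 to 0.29 and Hadh from 0.084 to 0.46. In the upper-tail F test with Benjamini-Hochberg adjustment over all probe sets, limma called 0 core genes at 0.05 where 0.357% of all probe sets passed (52 probe sets, and 0 without mouse 4). At an unadjusted p under 0.05 limma gave 0 core genes and 6.34% of all probe sets. The smallest unadjusted p was 0.29, for Acadm. In the lower-tail test limma called 0 core genes and 0% of all probe sets. Acaa2 alone had an unadjusted lower-tail p under 0.05, as did 5.22% of all probe sets (Acaa2 0.000346, adjusted p = 0.459, limma), which was 0.061 after quantile normalization and 0.063 with arrays centred on their medians. With 5 arrays and no technical replicates these tests cannot show that the enzymes were equally expressed in all mice.

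**Figure D3:**
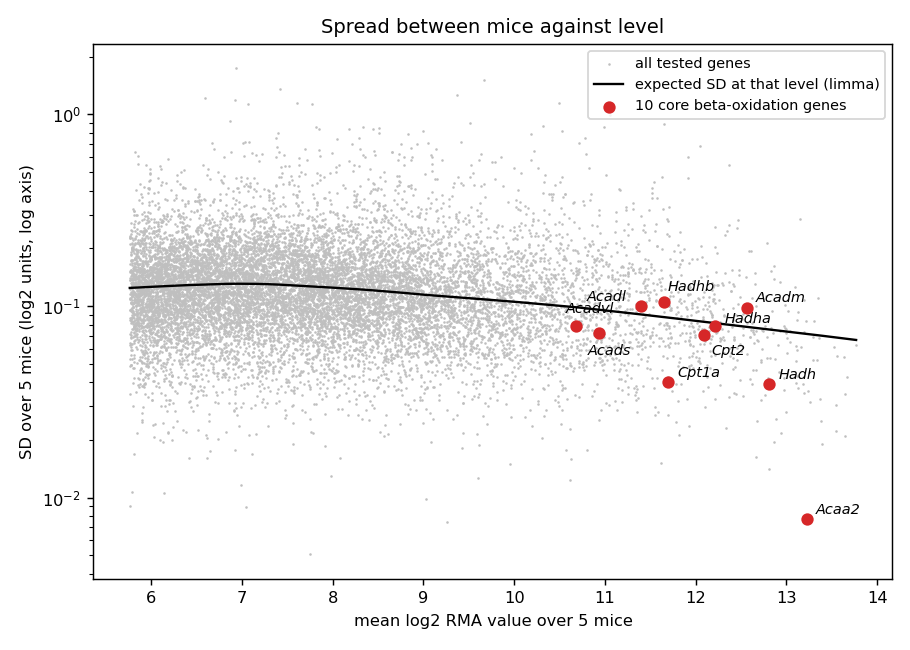
SD over the 5 mice (log2 units, logarithmic vertical axis) against mean log2 value for all tested genes (grey), the SD expected at each level by limma (black line) and the 10 core genes (red). Cpt1a, Hadh and Acaa2 and 4 others lie under the line, and Acadm, Hadhb and Acadl lie above it.

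Across the 10 genes, values were highest in mouse 2 and lowest in mice 1 and 3, by small amounts. With each gene centred on its own mean, the mean deviation of the 10 was -0.05, 0.08, -0.05, 0.01 and 0.01 (log2) in mice 1 to 5. The median deviation of all tested genes was 0.03, 0.03, 0.0074, -0.06 and -0.0064 in the same mice, of the same sign as the core genes in mouse 2 only. Set against tested genes within 0.5 of each gene's level, the means were -0.05, 0.05, -0.04, 0.02 and 0.02. In mouse 2, 6 of the 10 genes were at their highest (Cpt2, Acadm, Acadvl, Acads, Hadhb and Hadh), against 25.5% of tested genes, and 9 lay above their own mean, against 62%. In mouse 3, 5 were at their lowest (Cpt2, Acadl, Acadm, Hadha and Hadh), against 18.9% of tested genes. In mouse 1, 3 were at their lowest (Cpt1a, Acadvl and Hadhb), against 11.6%. In mouse 4, 7 of the 10 exceeded their own mean, against 27.1% of tested genes, and 2 were at their highest (Acadl and Acaa2), against 8.47%. With arrays centred on their medians, 8 genes were highest in mouse 2, against 35.8% of tested genes, and the mean deviation of mouse 4 was -0.04 in place of 0.01, below the -0.02 of mouse 1. With arrays shifted by their genes above a mean of 10, 5 were highest in mouse 2, against 16.8% of tested genes, and 5 lowest in mouse 1, against 13.9%.

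**Figure D4:**
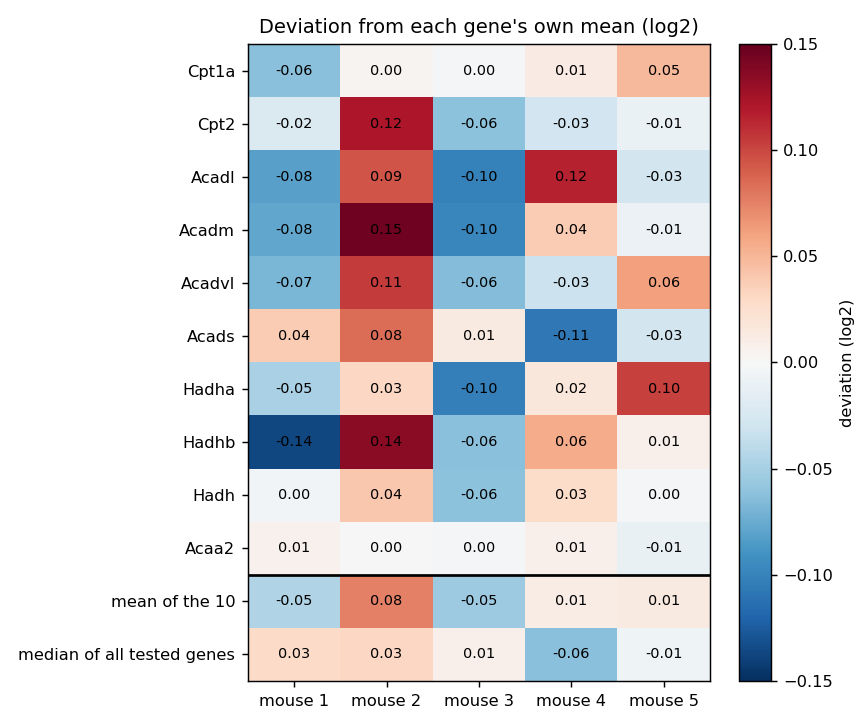
Deviation of each core gene (rows) from its own mean in mice 1 to 5 (columns), in log2 units given in each cell and by colour, with the mean of the 10 and the median of all tested genes under the line. The column of mouse 2 is mostly red (mean 0.08) and that of mouse 3 mostly blue (mean -0.05), while the row of Acaa2 is nearly white.

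The pairs of genes with the closest deviations were not the subunits of one enzyme. Acadm and Hadhb differed by a mean of 0.027 per mouse, Cpt2 and Acadvl by 0.029 and Acadl and Acadm by 0.031. Hadha and Hadhb differed by 0.073. Pairs with Acaa2 were also close (0.028 with Hadh and with Cpt1a), where both genes are nearly flat. Of the 45 pairs, 1 had the 5 mice in the same order (Acadm and Hadh, highest in mouse 2 and lowest in mouse 3). Their deviations differed by a mean of 0.047. How often unrelated genes share an order was not tested.

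The promoter windows of 9 core genes were searched on both strands for 7 motifs in the 250 bases before the start, and Acaa2 was not in that table. The hexamer AGGTCA, the building block of the sites of many nuclear receptors, was in 3 of 9 (Cpt1a, Acadm and Acadvl), against 14% of 32851 windows. The direct repeat of this hexamer with 1 base between its copies, searched with any base at the fourth position of each copy, the form that PPAR and RXR bind together, was in 0 of 9 and in 0.338% of all windows. The estrogen-related receptor element TNAAGGTCA, which overlaps the hexamer, was in 0 of 9 (1.14% of all), the palindromic NRF1 motif in 0 of 9 (3.74%) and TATAAA in 0 of 9 (12.4%). The GC box GGGCGG was in 7 of 9 (32.7%) and CCAAT in 2 of 9 (33.8%). The only GC box of Hadha lies in the stretch it shares with Hadhb, so the same site counts for both genes. A match is a description of the letters and not of a bound site. The 3 sequences that hold the hexamer are shown, as they are the ones with letters of a nuclear receptor site. Capitals mark AGGTCA or its reverse complement and the GC box or its reverse complement.
Cpt1a upstream, chr19:3323051-3323300, plus strand: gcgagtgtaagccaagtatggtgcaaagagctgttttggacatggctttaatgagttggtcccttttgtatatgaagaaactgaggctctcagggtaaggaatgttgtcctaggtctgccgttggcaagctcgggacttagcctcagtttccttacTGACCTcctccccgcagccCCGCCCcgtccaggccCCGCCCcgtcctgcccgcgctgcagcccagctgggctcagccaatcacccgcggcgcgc
Acadm upstream, chr3:153944644-153944893, minus strand: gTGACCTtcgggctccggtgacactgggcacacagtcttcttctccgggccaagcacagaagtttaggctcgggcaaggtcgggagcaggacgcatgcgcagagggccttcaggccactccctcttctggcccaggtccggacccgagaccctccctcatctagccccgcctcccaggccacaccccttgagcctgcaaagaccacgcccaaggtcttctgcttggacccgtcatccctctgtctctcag
Acadvl upstream, chr11:70015429-70015678, minus strand: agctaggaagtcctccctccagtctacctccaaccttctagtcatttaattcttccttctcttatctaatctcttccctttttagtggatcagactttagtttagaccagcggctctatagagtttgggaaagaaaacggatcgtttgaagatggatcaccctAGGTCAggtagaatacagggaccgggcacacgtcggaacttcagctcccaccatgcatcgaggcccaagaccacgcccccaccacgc

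Mouse 5 was the lowest liver for many genes that work beside the core enzymes. There, 1 of 10 core genes was at its lowest (Acaa2), against 21.6% of tested genes. Of 11 tested genes of fatty acid activation and carnitine transport, 7 were lowest there, as were 10 of 18 auxiliary and electron transfer genes and 9 of 13 peroxisomal oxidation genes. Their mean deviations in mouse 5 were -0.14, -0.10 and -0.11, against 0.01 for the core. Also lowest in mouse 5 were 8 of 19 regulators of oxidation (mean deviation -0.10) and 7 of 16 other mitochondrial genes (-0.0066). Of 6 ketone body genes, 1 was lowest there. In mouse 2, 13 of the 18 auxiliary and electron transfer genes were highest, against 25.5% of tested genes, with a mean deviation of 0.12. So were 8 of 13 peroxisomal, 5 of 11 activation, 6 of 16 other mitochondrial, 3 of 19 regulator and 1 of 6 ketone body genes. With arrays centred on their medians, the auxiliary, peroxisomal and activation counts in mouse 2 were 16, 9 and 6, against 35.8% of tested genes. With arrays shifted by their bright genes they were 8, 2 and 3, against 16.8%. For the activation, auxiliary and peroxisomal lists, the counts in mouse 5 were 7, 11 and 10 after quantile normalization. They were 7, 10 and 8 with arrays centred on their medians and 7, 11 and 7 with arrays shifted by their bright genes. The difference between the lists was not tested.

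In none of these lists did limma call a gene, in either tail. At an unadjusted upper-tail p under 0.05, limma gave 4 of the 11 activation and carnitine genes and 0 of the 18 auxiliary and electron transfer and 13 peroxisomal genes, against 6.34% of all probe sets. Slc22a5, the plasma membrane carnitine transporter, had 9.33, 9.93, 9.22, 9.57 and 9.46 (SD 0.27, n = 5, limma adjusted p = 0.602), highest in mouse 2. Slc25a20, which exchanges acylcarnitines across the inner membrane between the steps of Cpt1a and Cpt2, had 11.76, 12.06, 11.75, 11.89 and 11.64 (SD 0.16), also highest in mouse 2. Acsm1 and Acsm3, medium-chain acyl-CoA synthetases, had SDs of 0.23 each and were lowest in mouse 5 at 9.88 and 9.81. Cpt1c, the form known from brain, lay near background (mean 6.14, SD 0.07). Cpt1b, the muscle form, and Acsl1 had no probe set with 1 symbol.

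Among auxiliary genes, Acadsb, Ivd and Acad12, which encode enzymes of the acyl-CoA dehydrogenase family, spread most (SD 0.22, 0.19 and 0.18). Acadsb and Ivd, of branched-chain amino acid breakdown, were lowest in mouse 5 at 8.86 and 10.36. The 4 core dehydrogenases pass electrons to the flavoprotein of Etfa and Etfb. Etfb had a mean of 12.63 ± 0.05 (SD, n = 5), whereas Etfa had 11.04 ± 0.12 and was lowest in mouse 5 at 10.84, against 11.06 to 11.14 in the others. Etfdh, which passes the electrons on to ubiquinone, had 11.73 ± 0.07. In the peroxisome, Ehhadh, the bifunctional enzyme, had 13.52 ± 0.06 and Amacr, a racemase of branched acyl groups, 11.18 ± 0.05. The transporter Abcd2 (SD 0.20), the enoyl-CoA reductase Pecr (0.18) and the thiolase Acaa1a (0.14) spread most. The 6 tested ketone body genes had mean deviations between -0.06 and 0.03, with Bdh1 steadiest (SD 0.05) and Slc16a6 (0.20), Slc16a1 (0.16) and Slc16a7 (0.11) widest.

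The 19 regulators of oxidation had 0 called genes and 3 at an unadjusted upper-tail p under 0.05 (limma), against 6.34% of all probe sets. Acacb, whose product makes the malonyl-CoA that inhibits CPT1A, had 10.41, 10.16, 10.34, 9.78 and 9.62 (SD 0.35, n = 5, limma adjusted p = 0.293). It was highest in mouse 1, where Cpt1a was lowest, and lowest in mouse 5, where Cpt1a was highest. Of the 19 regulators, 10 were highest in mouse 1, against 23.9% of tested genes, and 8 were lowest in mouse 5, against 21.6%. A relation between Acacb and Cpt1a was not tested. Mlycd, whose product degrades malonyl-CoA, had 9.03, 9.33, 9.04, 9.18 and 9.07 (SD 0.13), highest in mouse 2. Ppara had 10.79, 10.75, 10.80, 10.78 and 10.45 (SD 0.15), lower in mouse 5 than in the others. Ppargc1a, a coactivator, had 8.20 in mouse 4 and 7.72 to 7.82 in the others. Lpin1, a phosphatidate phosphatase and coactivator, had an SD of 0.29, Fgf21 of 0.33 near background, and the receptor partner Rxra of 0.05. Of the 16 other mitochondrial genes, 7 had a variance ratio below 1, with Cs (SD 0.16), Fh1 (0.15) and Mdh2 (0.15) widest and Ogdh (0.05) steadiest. Their mean deviations were 0.0066, 0.05, -0.04, -0.01 and -0.0066 in mice 1 to 5. These had the sign of the core genes in mice 2 and 3 and the opposite sign in the others. The opposite signs depended on the scaling. With arrays shifted by their bright genes, the means were -0.0059, 0.02, -0.03, 0.02 and 0.0020, with the sign of the core genes in every mouse.

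**Figure D5:**
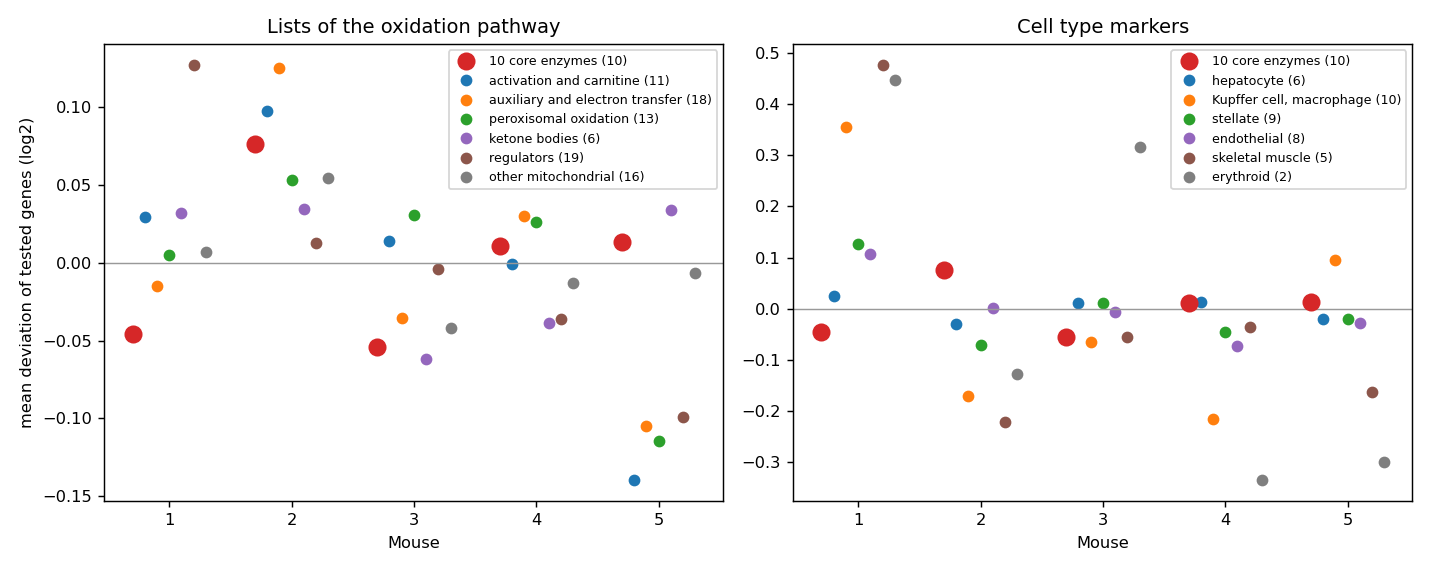
Mean deviation of the tested genes of each list (log2, vertical axis) in mice 1 to 5 (horizontal axis), with the number of genes in parentheses, for lists of the oxidation pathway (left) and for cell type markers (right, on a wider scale). The core enzymes (large red points) lie at 0.01 in mouse 5, above the activation, auxiliary, peroxisomal and regulator lists (-0.14, -0.10, -0.11 and -0.10). They stay within 0.08 of 0 where Kupffer cell and muscle markers reach 0.36 and 0.48 in mouse 1.

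By mean deviation over tested genes, the Kupffer cell, stellate, endothelial, leukocyte, erythroid and muscle marker lists were highest in mouse 1. The cholangiocyte list was highest in mouse 2 and the adipocyte list in mouse 3. Of 3 tested leukocyte markers, 1 was highest in mouse 1 and 2 in mouse 5. All 6 measured hepatocyte markers, among them Alb and Ttr, exceeded background on all arrays, with mean deviations between -0.03 and 0.03 and summed log2 levels of 78.6 to 79.0. Apoa1 (SD 0.11) and Cps1 (0.07) spread most. The 10 Kupffer cell and macrophage markers deviated by 0.36 in mouse 1 and -0.17 and -0.21 in mice 2 and 4 (summed log2 levels 85.6 to 91.3), with 9 above background on all arrays. Adgre1 (SD 0.41) and Timd4 (0.40) led them. The 5 tested of 9 muscle markers deviated by 0.48 in mouse 1 and -0.22 in mouse 2 (summed levels over all 9, 54.4 to 59.7), led by Mb (0.39) and Acta1 (0.36), while Myh4 and Mylpf exceeded background on no array. Of the other lists, stellate (0.13; Reln SD 0.18, Des 0.17), endothelial (0.11; Stab2 0.15, Tek 0.13) and erythroid markers (0.45 over 2 genes; Alas2 0.55, Slc4a1 0.19) were also above their means in mouse 1. Cholangiocyte markers reached 0.14 in mouse 2 (Epcam SD 0.29, Sox9 0.22), but of the 4 tested, 1 each was highest in mice 2, 3, 4 and 5. Adipocyte markers (Fabp4 SD 0.26, Retn 0.15, and Adipoq above background on no array) deviated by -0.05 in mouse 1. Of the 3 tested, only Fabp4 (-0.36) lay below its own mean there. Leukocyte markers (Ptprc SD 0.22, S100a9 0.11) deviated by 0.10 in mouse 1. The core enzymes were opposite in sign to both the Kupffer cell and muscle lists in mice 1, 2 and 4. They had the same sign in mouse 3, and in mouse 5 they shared that of the Kupffer cell list only. With arrays centred on their medians, the core, Kupffer cell and muscle means in mouse 4 were all negative (-0.04, -0.26 and -0.09). After quantile normalization, the core mean in mouse 5 was -0.0073, with the sign of the muscle list only. The part of the cell mix in the core genes' deviations was not tested, and fewer cells of a type and less RNA per cell cannot be told apart in whole tissue.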

How the data were processed

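The values are log2 signals per probe set, deposited by the authors. Per the submitters' processing notes they were made with RMA and Affymetrix Expression Console 1.2, and the settings and the set of arrays normalized together are not given in the sources used here. Of 35556 probe sets, the platform annotation gave 1 symbol to 21789, several to 1621 and none to 12146. A gene with several was represented by the brightest. Array medians lay between 6.22 and 6.31 and array pairs correlated at r = 0.971 to 0.993 across probe sets, which are not independent. Arrays carry no count of molecules, so their number limits the precision.

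With limma 3.58.1 (R 4.3.3, statmod 1.5.0), a model with the mean as its only term was fitted to 14586 probe sets of 13336 genes whose mean exceeded the background of the means (5.77). The variance between 5 arrays (4 degrees of freedom) was compared with a robust, level-trended expected variance (6.21 prior degrees of freedom) by one-sided F tests in each tail, with Benjamini-Hochberg adjustment at 0.05. The test was run on data simulated from its own fitted model, with added spreads far wider than those of the core genes. That run does not show its power for spreads of their size. Named were the 10 members and, per pathway list, called genes, the 3 largest and the smallest SDs and 11 preset genes, and per marker list the 2 largest SDs. Other genes named in the text (Alb, Ttr, Etfa, Myh4, Mylpf, Adipoq) were chosen after their values were seen. Members, lists and tests were chosen with earlier results of these data known. Alternatives were other scalings, filters, variance fits and summaries and leaving out each mouse. Protein sequences were not used here. Python 3.11.15 with numpy 2.4.6 and pandas 2.3.3 made the other values.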

Additional observations from a re-analysis of the deposited data

Results flagged for a closer look

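Of 58 named genes examined, many of them named for a large SD, 1 core gene and 7 others had a single liver far from the remaining 4, with a gap to the nearest of them, as a share of the whole range, above Dixon's 95% critical value for 5 samples. Chance alone flags about 1 in 20 groups of samples, and 5.65% of all tested genes met this criterion. Cpt2 was highest in mouse 2, at 0.721 of its range. Ppara was lowest in mouse 5 (0.856). Ppargc1a was highest in mouse 4 (0.774). Fgf21 (0.777), the macrophage markers Adgre1 (0.741) and Timd4 (0.826), the stellate cell marker Des (0.834) and the muscle marker Mb (0.770) were all highest in mouse 1. Etfa, named after its values were seen and not among the 58 examined, would also meet the criterion (0.721, lowest in mouse 5). The mean deviation of the 10 core genes did not meet the criterion (0.480).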

How the results depend on the processing

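All 10 core genes exceeded background under each of 4 alternatives, at the 90th and 99th percentile of the receptor probe sets and under both other scalings. Over 14 alternative fits limma called 0 core genes in either tail, and the smallest adjusted p of a core gene was 0.981 in the upper and 0.236 in the lower tail (Acaa2, without the trend on level). Between 6 and 10 core genes had a variance ratio below 1. The upper-tail count over all probe sets, 52, was 142 with arrays centred on their medians, 29 with probe sets above background on all arrays, 31 with the mean of a gene's probe sets, 18 without the robust step, 24 without the trend and 0 with all probe sets (1385 at an unadjusted p under 0.05, limma). Leaving out 1 mouse gave 0 (without mouse 4; 864 unadjusted, limma) to 69. The lower-tail count, 0 (761 unadjusted, limma), was 1 without a filter, 2 with arrays shifted by their bright genes, a setting added after seeing the data, and 0 to 1 with 1 mouse left out. The causes were not tested. With each gene divided by its SD, the mean deviations of the 10 genes were -0.50, 0.94, -0.74, 0.20 and 0.10 SD in mice 1 to 5, a change of unit by construction. Those of mice 1, 2 and 3 kept their sign in every setting, while mouse 4 ranged from -0.04 with arrays centred on their medians to 0.04 with arrays shifted by their bright genes, and mouse 5 from -0.0073 after quantile normalization to 0.03 without mouse 2 on the log2 scale. The deviations from genes of like level and with arrays shifted by their bright genes were also added after seeing the data. No paired analysis was possible because all samples belong to 1 group. Depth does not apply to arrays, and all core genes lay at least 4.58 above background.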
